A study of Mus musculus with 6 samples.

Results

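The mitochondrial fusion and fission machinery was described through 10 genes, chosen by name out of 49652 gene rows, in bulk RNA-seq of mouse muscle stem cells. They are Opa1, its proteases Oma1 and Yme1l1, the outer-membrane fusion genes Mfn1 and Mfn2, the fission gene Dnm1l, and the genes of its receptors and adaptors Fis1, Mff, Mief1 and Mief2. All 10 were found, and all 10 passed the filter on low counts. Both groups are labelled OPA1-Pax7-CreERT2, were 8 to 10 weeks old and uninjured, and received tamoxifen by gavage on 5 days, 3 days before hindlimb cells were sorted as integrin alpha-7 and VCAM positive and Sca1, CD45 and CD31 negative. WT libraries (n = 3) came from Cre-negative animals and KO libraries (n = 3) from Cre-positive animals, so KO animals carry Cre and controls do not. In this design the Pax7 promoter drives a Cre that tamoxifen activates, and Pax7 marks muscle stem cells. The labels do not say whether libraries are from single or pooled animals, so p-values measure only the spread between these libraries, which may be technical in part.

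Mitochondria join and divide continuously. Fusion takes a GTPase on each membrane, mitofusin (MFN1 or MFN2) on the outer and OPA1 on the inner, where OPA1 also keeps cristae junctions tight. OPA1 exists as long, membrane-anchored forms and short forms cut from them: YME1L (Yme1l1) cuts constitutively and OMA1 is activated by loss of membrane potential and other stress. Division needs DRP1 (Dnm1l), a cytosolic GTPase that is gathered on the outer membrane by MFF and the adaptors MiD51 (Mief1) and MiD49 (Mief2), with FIS1 as a further outer-membrane anchor. Much of this control acts on proteins, which read counts do not show.

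Each library held 41410136 to 56606886 reads in genes. The 8 muscle stem cell markers (Pax7, Myf5, Itga7, Vcam1, Cd34, Sdc4, Cdh15, Calcr) were all detected and summed to 5360 to 5682 CPM (read counts scaled to library size by TMM) in WT and 4817 to 5695 CPM in KO. The genes of the excluded surface proteins, Ly6a, Ptprc and Pecam1, summed to 10.7 to 34.6 CPM in WT and 9.22 to 42.2 CPM in KO. Of 8 marker lists of other cell types, 7 overlapped between groups in summed level. The exception was the fibro-adipogenic list (8 of 8 genes detected, 2 positive and 6 negative log2 fold changes, 0 called), at 1046 to 1469 CPM in WT and 883 to 1029 CPM in KO, most of it Dpt. Dpt stood at 763, 977 and 1196 CPM in the WT libraries and 600, 748 and 792 CPM in the KO libraries. Without Dpt the summed level of this list overlapped between groups. The part of the list in the members' values was not tested. Profiles did not separate cleanly by genotype. Of 15 library pairs, WT replicate 1 and KO replicate 1 were closest by correlation of log2 CPM (Pearson r = 0.957 across 18832 genes, which are not independent replicates), and KO replicates 2 and 3 by chi-square of raw counts per degree of freedom (46.5, ahead of 58.5 for WT replicate 2 with KO replicate 3 and 60.6 for WT replicate 1 with KO replicate 1). A list of 14 cell cycle genes summed to 447, 148 and 403 CPM over WT replicates 1 to 3 and to 928, 154 and 137 CPM over the KO replicates in the same order. A list of 10 immediate early genes summed to 16659, 31977 and 6250 CPM in the WT libraries and 13576, 38758 and 35167 CPM in the KO libraries. Xist, transcribed in females, was at 0.0209 CPM in WT replicate 2 and at 244 to 508 CPM in the other 5 libraries. Ddx3y, on the Y chromosome, was at 0.0354 CPM in WT replicate 1, 226 CPM in WT replicate 2 and 23.3 CPM in WT replicate 3, and at 0.141, 22.9 and 90.2 CPM over the KO replicates. WT replicate 3 and KO replicates 2 and 3 thus held RNA of both sexes, and so of more than 1 animal. Libraries of a group differed in the sexes they held, so they were not repeats of 1 RNA sample.

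Opa1 lies on chromosome 16 from 29579334 to 29654884 (GRCm38, plus strand), and no annotated exon of another gene overlaps its exons. As the targeted gene it was set against the labels, and it did not sort every library by them. It stood at 68.2, 31.4 and 68.8 CPM over WT replicates 1 to 3 and at 17.5, 34.4 and 27.1 CPM over the KO replicates. The groups overlap because the library labelled WT replicate 2 lay inside the KO range, and KO replicate 1 was the lowest of all 6. The log2 fold change, KO minus WT, was -1.09 (SE 0.37, 95% interval -1.97 to -0.22), at an unadjusted p of 0.0215 and an adjusted p of 0.99998 in edgeR's quasi-likelihood test. Without the library labelled WT replicate 2 it was -1.38, and without KO replicate 1 it was -0.87. The exact two-sided permutation test gave p = 0.2, where this design cannot go below 0.1. In bulk RNA, fewer cells that express a gene and less of its RNA per cell cannot be told apart, and reads from any Opa1 exon that recombination leaves in place still count.

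Over all 18832 genes tested, edgeR called 0 (0%) at an adjusted p under 0.05, with 393 (2.09%) at an unadjusted p under 0.05. By other tools, limma voom called 0 and DESeq2 called 25 (0.115%), none of them a member. Among the 10 members, 0 were called, and 1, Opa1, had an unadjusted p under 0.05. That count depends on the fit. With a library left out, the unadjusted p of Opa1 was not under 0.05 in 4 of 6 fits (0.00329 to 0.0687 over the 6). Mief2 had an unadjusted p of 0.0313 in DESeq2 and 0.0296 in limma voom. KO and WT libraries did not overlap for 1 member, Mief2, against 6.55% of all genes tested. Log2 fold changes were positive for 4 members and negative for 6, with a median of -0.02 beside 0.01 over all genes tested.

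**Figure D1:**
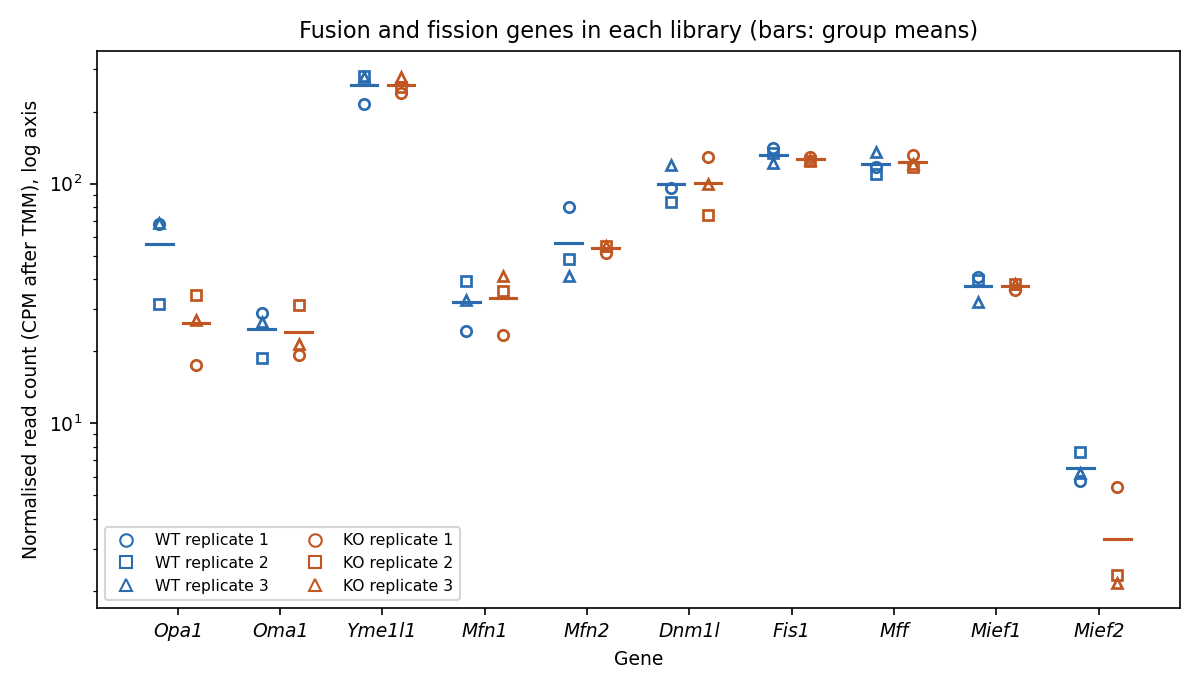
Normalised read count (CPM after TMM scaling, log axis) of the 10 genes in each library. Symbols are single libraries and bars are group means (n = 3). For Mief2 all 3 KO libraries lie below all 3 WT libraries, and for Opa1 the library labelled WT replicate 2 lies among the KO libraries.

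The proteases that cut OPA1 had nearly equal group means. Yme1l1 (chromosome 2, 23156369 to 23199260), the constitutive protease, stood at 214, 281 and 278 CPM in the WT libraries and 239, 254 and 279 CPM in the KO libraries. Its WT and KO means of 258 ± 37.8 and 257 ± 20.2 CPM (SD, n = 3) differed by less than the spread within either group. Its 95% interval ran from 0.78 to 1.28 times the WT level. Oma1 (chromosome 4, 103313812 to 103371868), the stress-activated protease, stood at 28.8, 18.7 and 26.6 CPM in the WT libraries and 19.3, 31.3 and 21.4 CPM in the KO libraries. The highest and the lowest Oma1 libraries, KO replicate 2 and WT replicate 2, thus bracket both groups. Its interval was wider, from 0.63 to 1.5 times WT, so changes within that range fit these libraries. Neither gene passed the test (unadjusted p 0.977 for Yme1l1 and 0.885 for Oma1, adjusted p 0.99998 for both, edgeR).

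The outer-membrane fusion genes varied more between libraries than between genotypes. Mfn1 (chromosome 3, 32529465 to 32579239) stood at 24.3, 39.3 and 32.7 CPM in the WT libraries and 23.3, 35.7 and 41.0 CPM in the KO libraries. Replicate 1 of each group was its lowest library for Mfn1. Mfn2 (chromosome 4, 147873599 to 147904704), whose protein also tethers mitochondria to the endoplasmic reticulum, stood at 80.2, 48.5 and 41.1 CPM in the WT libraries and 51.6, 55.0 and 55.2 CPM in the KO libraries. The KO libraries lay within 1.07 times of each other for Mfn2, while WT replicate 1 stood at 1.95 times WT replicate 3. Log2 fold changes were 0.06 (SE 0.27) for Mfn1 and -0.07 (SE 0.26) for Mfn2, and neither gene passed (adjusted p 0.99998 for both, edgeR). Without WT replicate 1 they were -0.11 and 0.27.

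Dnm1l (chromosome 16, 16312230 to 16358959), the GTPase that constricts mitochondria, stood at 96.1, 83.7 and 120 CPM in the WT libraries and 129, 74.4 and 99.8 CPM in the KO libraries. The KO libraries alone spanned 1.74 times, from replicate 2 to replicate 1, and the WT libraries lay inside that span. Its log2 fold change of 0.02 (SE 0.23, 95% interval -0.53 to 0.57) did not pass, and without KO replicate 1 it was -0.20. Exons of an antisense gene, Gm49521, overlap 4.67% of the Dnm1l exon length, and the strand setting of the counting is not given in the sources used here.

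Of the receptors and adaptors of DRP1, Fis1 and Mff were among the steadiest genes in these libraries. Fis1 (chromosome 5, 136953275 to 136966234) stood at 141, 134 and 122 CPM in the WT libraries and 130, 124 and 126 CPM in the KO libraries. Its highest library was 1.16 times its lowest, and its biological coefficient of variation (edgeR's estimate of the spread between libraries beyond counting error) was 0.15, with a lower one in 0.409% of the genes tested. The 95% interval for Fis1, 0.79 to 1.16 times WT, was the narrowest of the 10 members. Mff (chromosome 1, 82724890 to 82752394), the main DRP1 receptor, stood at 118, 110 and 136 CPM in the WT libraries and 132, 118 and 121 CPM in the KO libraries, with an interval of 0.82 to 1.26 times WT. Exons of C430014B12Rik on the opposite strand overlap 2.0% of the Mff exon length. Mief1 (chromosome 15, 80234018 to 80253371) stood at 40.6, 39.7 and 32.0 CPM in the WT libraries and 35.9, 38.3 and 38.1 CPM in the KO libraries. Its group means were both 37.4 CPM (SD 4.71 in WT and 1.34 in KO, n = 3 each). Exons of an uncharacterised coding gene, AC140267.1, on the same strand overlap 2.63% of the Mief1 exon length, and reads there may be left uncounted.

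Mief2 (chromosome 11, 60728398 to 60732951), the paralog of Mief1, was the member whose groups did not overlap. It had 324, 362 and 331 reads in the WT libraries and 269, 97 and 123 reads in the KO libraries. That is 5.73, 7.56 and 6.19 CPM in the WT libraries and 5.40, 2.34 and 2.17 CPM in the KO libraries. KO replicates 2 and 3 lay well below the rest, while KO replicate 1 lay just under the lowest WT library. The KO mean was 50.9% of the WT mean (log2 fold change -0.97, SE 0.45, 95% interval -2.03 to 0.09, edgeR unadjusted p 0.0663, adjusted p 0.99998), so it did not pass. Without KO replicate 1 the log2 fold change was -1.53 (unadjusted p 0.00662, adjusted p 0.99984). Over the 6 fits that leave out 1 library it ranged from -1.53 to -0.75.

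Cell cycle and clock lists were set beside Mief2. KO replicate 1 had the highest summed cell cycle level, 928 CPM, and the highest Mief2 among KO libraries. In WT the order was otherwise: replicate 2, with the lowest cell cycle sum (148 CPM), had the highest Mief2. A list of 13 clock genes, all tested, summed to 1122, 1462 and 808 CPM in the WT libraries and 1534, 1946 and 1757 CPM in the KO libraries, so its groups did not overlap either. Of these 13, 10 had positive and 3 negative log2 fold changes (median 0.66), and 0 were called. An unadjusted p under 0.05 (edgeR) was reached by 4, against 2.09% of all genes tested, in a list chosen with earlier results known. In WT, replicate 2 had both the highest clock sum (1462 CPM) and the highest Mief2. In KO, replicate 1 had the lowest clock sum (1534 CPM) and the highest Mief2. The part of cell cycle and clock states in the Mief2 values was not tested.

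Most of the members' start sites lay in CpG-rich sequence. In a RefSeq table of 300-base windows (250 bases before and 50 after a start, GRCm38.p6), all 10 members were found, with 15 starts. These held 8 to 33 CpG dinucleotides, with a median of 21 beside 7 over all 32851 windows. The lowest were a start of Fis1 (8) and that of Mfn1 (12). Windows of 1 gene can overlap, as for Mfn2 and Mff, and the 32851 were not limited to genes detected here. Letter matches on both strands were searched for 4 motifs. The NRF1 motif (GCGCA, 1 base of any kind, GCGC), bound by a regulator of nuclear genes for mitochondria, was in 4.6% of all windows and in those of Opa1 and Oma1. The E-box CACGTG, which clock and MYC factors bind, was in 7.15% of windows and in that of Mief2. The ETS motif CCGGAAG (8.86%) was in those of Dnm1l, Fis1, Mfn1, Mief1 and Yme1l1, and the YY1 motif (AA, 1 base of any kind, ATGGC, 2 bases of any kind, C; 3.02%) in those of Mff, Mfn1 and Mief1. The windows of Mfn2 had no match. The percentages are shares of single windows, whereas a member was counted if any of its windows matched. They also cover windows with fewer CpG than those of the members, so they are no matched background. The Oma1 match is on the minus strand, so its capitals show the reverse complement of the NRF1 motif (GCGC, 1 base of any kind, TGCGC). The matches of the members with the lowest KO means relative to WT, Opa1 and Mief2, and of the OPA1 protease Oma1 are shown 5′ to 3′ on the plus strand, with the motif in capitals.
Opa1: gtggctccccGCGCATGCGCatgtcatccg
Oma1: ggaaaggtgtGCGCCTGCGCggagccggct
Mief2: ccgttttgagCACGTGtgcgcaggag
They lie at chr16:29579265-29579294, chr4:103313813-103313842 and chr11:60728364-60728389. The motif begins 59, 23 and 24 bases before the RefSeq start, in that order. For Oma1 that start (103313846) lies downstream of the GENCODE gene start given above (103313812), so its motif, from 103313823, is 11 bases inside the GENCODE gene. These are matches of letters, and no binding was measured.

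**Figure D2:**
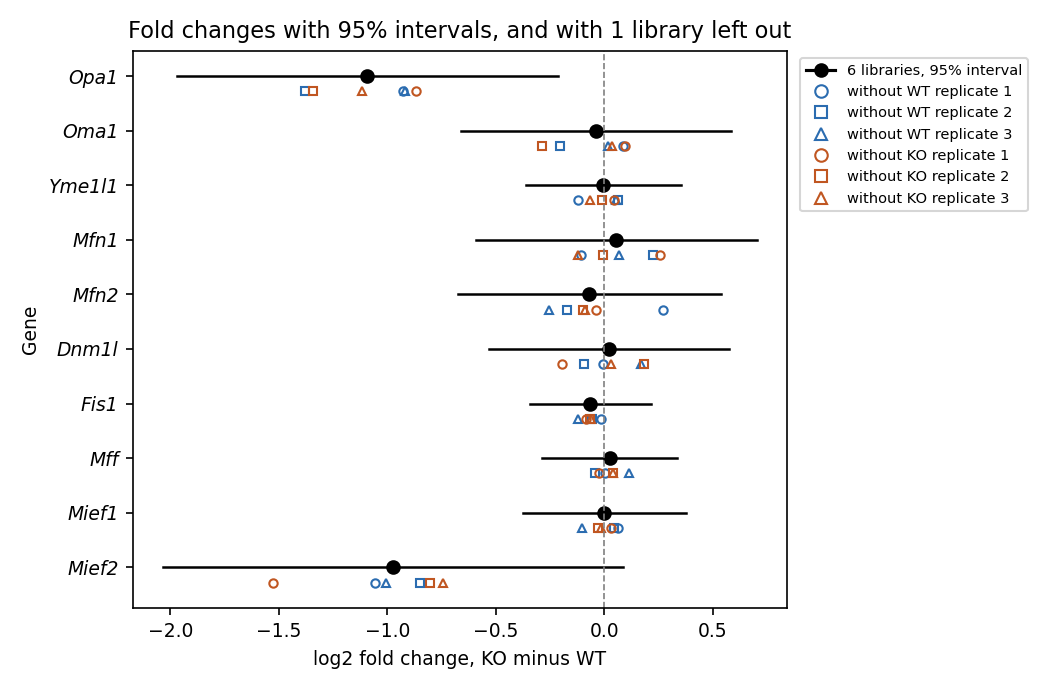
Log2 fold change, KO minus WT, of each gene with its 95% interval (black, 6 libraries) and with 1 library left out (open symbols). The interval of Opa1 ends at -0.22 and that of Mief2 at 0.09, and the intervals of the other 8 members lie within 1 log2 unit of 0 on either side.

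The intervals give, gene by gene and without adjustment, the changes that fit these libraries. They are not the limit of what a call at an adjusted p under 0.05 can detect. Opa1 was not called although its interval lay wholly below 0. For 8 of the 10 members, all but Opa1 and Mief2, the 95% interval lay within a 2-fold change either way, which held for 44.6% of all genes tested. The widest of the 8 was Mfn1, at 0.66 to 1.63 times WT. No member's test of KO against WT passed with any library left out, and the directions of Opa1, Mief2 and Fis1 were negative in all 6 such fits. The sign of the other 7 turned in at least 1 of them.

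Between genes, levels were compared per kilobase of exon (FPKM, on the TMM-scaled totals, with the union of annotated exons as length). Fis1 was highest, at 75.5 ± 4.21 FPKM (SD, n = 6 libraries), and ranked between 677 and 799 among the genes detected in a library. Yme1l1 followed at 32.2 ± 3.39 FPKM and Dnm1l at 19.3 ± 4.01 FPKM. These 3 genes did not overlap in range with the gene next to them in the order. Dnm1l did overlap with genes further down. In KO replicate 2 it stood at 14.3 FPKM, below Oma1 in that library (14.6 FPKM) and Mfn2 in WT replicate 1 (15.4 FPKM). Mff (12.5 ± 0.986), Oma1 (11.4 ± 2.45) and Mfn2 (10.6 ± 2.56 FPKM) came next with overlapping ranges. Mfn1 (5.35 ± 1.23), Opa1 (5.23 ± 2.78) and Mief1 (4.62 ± 0.382 FPKM) also overlapped. Opa1 reached into the range of the genes above as well, at 8.73 FPKM in WT replicate 3, where Mfn2 was at 7.92 FPKM. Mief2 was lowest in every library, at 1.80 ± 0.801 FPKM, and it ranked between 9593 and 10243 in WT and between 10453 and 13718 in KO. With the length of the longest transcript instead, Mff stood above Dnm1l, at 31.2 and 25.3 FPKM. By that length Mief1 (7.27) and Mfn1 (7.18) also stood above Opa1 (6.62 FPKM), and Mfn2 (12.73) just above Oma1 (12.71 FPKM).

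**Figure D3:**
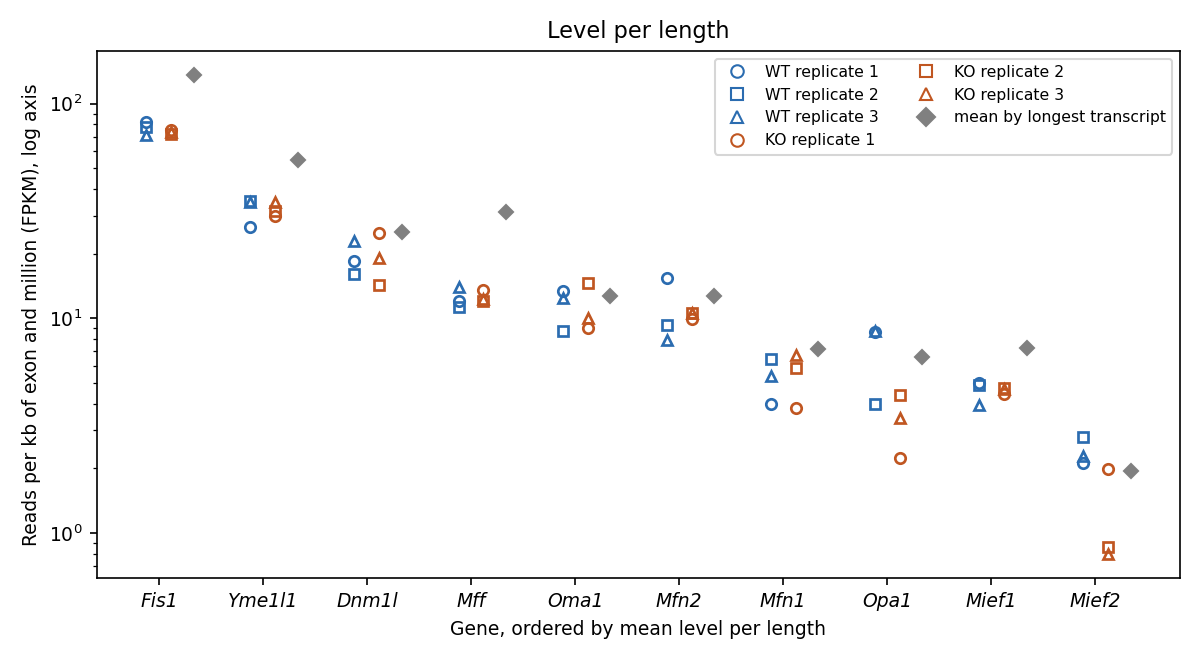
Level per length (FPKM, log axis) of each gene in each library, in the order of the mean over 6 libraries, with the mean by longest transcript as grey diamonds. Fis1 lies at 71.1 FPKM or more in every library and Mief2 at 2.78 FPKM or less.

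Opa1 varied the most in rank. It ranked 5417, 8315 and 5302 among detected genes over WT replicates 1 to 3 and 10071, 7971 and 8858 over the KO replicates. Of the summed FPKM of the 3 fusion GTPases (Opa1, Mfn1, Mfn2), Opa1 made up 30.8%, 20.2% and 39.7% in the WT libraries and 13.9%, 20.98% and 16.6% in the KO libraries. The share was 30.2 ± 9.76% in WT and 17.2 ± 3.58% in KO (SD, n = 3), and the groups overlap through the library labelled WT replicate 2. Relative to Yme1l1 within the same library, Opa1 was at 0.323, 0.113 and 0.251 in the WT libraries and 0.0744, 0.138 and 0.0988 in the KO libraries. Ratios within a library do not depend on how libraries are scaled, and WT replicate 2 lay among the KO libraries in this measure too.

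Balances between paralogous or paired members were compared the same way. Oma1 to Yme1l1 was 0.501, 0.248 and 0.357 in the WT libraries and 0.302, 0.461 and 0.287 in the KO libraries, with means of 0.369 ± 0.127 and 0.350 ± 0.0960 (SD, n = 3). The means differed by less than either SD. Mfn1 to Mfn2 was 0.257, 0.689 and 0.676 in the WT libraries and 0.384, 0.551 and 0.632 in the KO libraries. Replicate 1 of each group was lowest, and the group means of 0.541 ± 0.246 and 0.522 ± 0.126 (SD, n = 3) differed by less than the spread. Mief1 to Mief2 was 2.38, 1.76 and 1.73 in the WT libraries and 2.23, 5.49 and 5.89 in the KO libraries. KO replicates 2 and 3 stood above every WT library and KO replicate 1 inside the WT range.

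**Figure D4:**
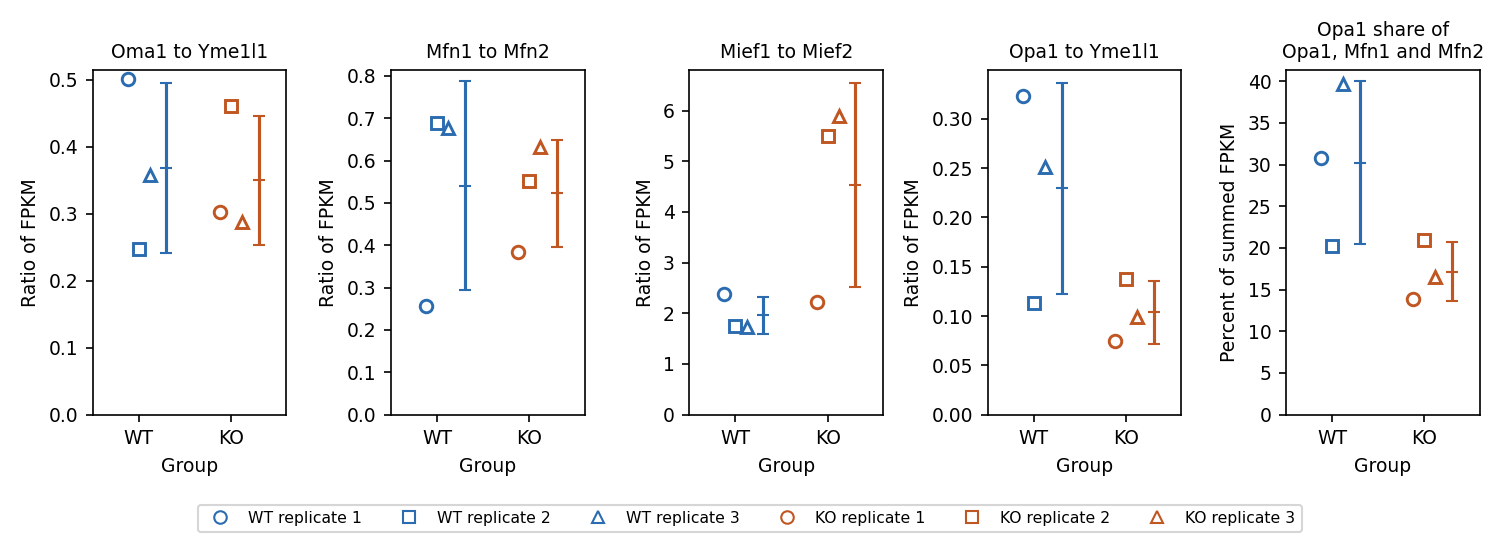
Ratios of FPKM within a library, and Opa1 as a percentage of the summed FPKM of Opa1, Mfn1 and Mfn2, by group. Symbols are libraries and bars show mean and SD (n = 3). Mief1 to Mief2 is 5.49 and 5.89 in KO replicates 2 and 3 and at most 2.38 elsewhere.

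By biological coefficient of variation and by range over all 6 libraries, Mief2 and Opa1 had the widest spread of the members. The biological coefficient of variation was 0.45 for Mief2 and 0.33 for Opa1, beside a median of 0.38 over all genes tested, and 0.15 to 0.27 for the other 8 members. Over all 6 libraries, highest to lowest was 3.93 for Opa1 and 3.49 for Mief2, and at most 1.95 for the others. This range includes the difference between groups. Within WT and KO it was 2.19 and 1.97 for Opa1 and 1.32 and 2.49 for Mief2, beside 1.95 and 1.07 for Mfn2. For Mief2 the spread lay in KO (SD of log2 CPM 0.72, against 0.21 in WT), and for Mfn2 in WT (0.50, against 0.05 in KO).

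Genes whose pattern over the 6 libraries was most like that of Opa1 were found by the root mean square difference of centred log2 CPM among 9880 genes whose mean log2 CPM reached 3, members left out. They were Col5a3, a collagen V chain (0.32), Chrdl2, a secreted BMP antagonist (0.34), and Thbs3, a thrombospondin of the matrix (0.37), where the median gene stood at 0.75. Col5a3 was at 103, 91.4 and 123 CPM in the WT libraries and 39.0, 81.7 and 71.4 CPM in the KO libraries. Among the other 9 members Oma1 was nearest to Opa1 (0.56), at rank 155 when set among these genes, and Mief2 farthest (0.84).

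Of 27 further genes of mitochondrial shape and movement, 26 were tested, and Gdap1, with 0 to 52 reads per library, was not. They included fission regulators (Mtfp1, Mtfr1, Mtfr1l, Mtfr2), fusion regulators (Miga1, Miga2, Pld6, Slc25a46), ubiquitin enzymes (March5, Mul1, Usp30), inner-membrane proteases (Parl, Afg3l2, Spg7) and the transport genes Rhot1, Rhot2, Trak1 and Trak2. None was called and none had an unadjusted p under 0.05 (edgeR). Log2 fold changes were positive for 18 and negative for 8 (69.2% positive, against 51.0% of all genes tested), with a median of 0.08 against 0.01. Without KO replicate 1 the median was -0.0079. The smallest p-values belonged to Mtfr1, Mtch2, Rhot2 and Dnm2. Mtfr1, a fission regulator, stood at 52.8 ± 11.9 CPM in WT and 67.4 ± 9.92 CPM in KO (SD, n = 3; log2 fold change 0.35, SE 0.21, unadjusted p 0.132). Mtch2, an outer-membrane protein, had 0.21 (SE 0.15), Rhot2, a GTPase that links mitochondria to motors, 0.26 (SE 0.19), and Dnm2, a dynamin of endocytosis, 0.27 (SE 0.22). In each of these 4 genes the groups overlapped.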

How the data were processed

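RNA was taken from freshly sorted cells with a kit for small inputs, per the labels' protocols. Each library's table holds raw counts of reads per gene as the authors deposited them, not normalized. Alignment and counting used STAR 2.6.0c and HTSeq 0.6.1p2 after trimming with Trim Galore 0.5.0 (cutadapt 2.5) on GRCm38, per the submitters' processing notes, which also name edgeR and DESeq2. Neither annotation release nor strand setting is given in the sources used here. The 5 summary rows of each table stayed out of totals and tests: reads without a feature were 11.2% to 17.0%, ambiguous reads 1.21% to 1.42% and multiply aligned reads 14.8% to 24.6% of all reads.

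Symbols, positions and exon lengths came from GENCODE M21 (GRCm38), which matched 49399 of 49652 gene rows. KO was compared with WT by edgeR 4.0.16 (R 4.3.3; quasi-likelihood test, robust, TMM, the package's filter on low counts, no covariate), adjusted by Benjamini-Hochberg over 18832 genes. Each SE was taken as the size of the log2 fold change over the root of its F statistic. Alternatives were DESeq2 1.42.0, limma 3.58.1 voom, other scaling, no filter, protein-coding genes alone, a replicate block and leaving out each library. The fit was tested on simulated counts. At the spread estimated per gene, it called 15% of 2-fold and 73% of 4-fold changes there. Changes were placed only in genes above a minimum mean CPM that Mief2 did not reach, so these shares do not cover Mief2. With 97 or more reads for every member in every library, the spread between libraries limits precision more than counting error. Log2 CPM used a prior count of 2. Members and lists were chosen with earlier results of these data known. Named genes are the 10 members, the 4 further shape genes with the smallest p (as none was called), the 3 genes most like Opa1, and list sums. Of the marker lists of other cell types, summed CPM ranges in WT and KO were 123 to 194 and 123 to 179 for endothelial, 1046 to 1469 and 883 to 1029 for fibro-adipogenic, 6.43 to 15.7 and 6.06 to 17.4 for leukocyte, 154 to 543 and 176 to 409 for mature fibre, 752 to 1289 and 732 to 1020 for smooth muscle and pericyte, 39.5 to 188 and 93.6 to 167 for Schwann, 7.65 to 15.3 and 8.09 to 17.0 for tenocyte, and 99.1 to 423 and 33.0 to 257 for erythroid genes.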

Additional observations from a re-analysis of the deposited data

How the results depend on the processing

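No member was called under any alternative run, including DESeq2 and limma voom, and Opa1 and Mief2 kept negative fold changes in all of them, from -1.38 to -0.87 and from -1.53 to -0.75. Members near 0 changed sign: Mief1 was -0.0056 with DESeq2's size factors, -0.0244 without the filter, -0.0063 for protein-coding genes alone and -0.0082 by DESeq2. Without the filter, Dnm1l was -0.0065 and Mff -0.0022, and limma voom put Yme1l1 at 0.0066. With a library left out, log2 fold changes ran from -0.29 to 0.0948 for Oma1, -0.12 to 0.0619 for Yme1l1, -0.12 to 0.26 for Mfn1, -0.26 to 0.27 for Mfn2, -0.20 to 0.18 for Dnm1l, -0.0415 to 0.11 for Mff, -0.10 to 0.0636 for Mief1 and -0.0079 to 0.11 for the median of the 26 further shape genes. The cause was not tested.

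Genes called numbered 0 by edgeR in every run and 25 by DESeq2. An unadjusted p under 0.05 was reached by 393 genes in the main comparison, by 864 with no filter, 245 among protein-coding genes, 855 in DESeq2 and 324 to 818 with a library left out. By the longest transcript, mean levels were 54.7 FPKM for Yme1l1, 7.18 for Mfn1, 25.3 for Dnm1l, 136.5 for Fis1, 31.2 for Mff and 7.27 for Mief1, higher by construction since the length is shorter.

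Replicate numbers did not pair the libraries throughout. Same-numbered deviations from the group means correlated at 0.245, 0.105 and -0.0721 across genes. The 0.245 of WT replicate 1 with KO replicate 1 was the highest of all pairs of a WT and a KO library. WT replicate 2 correlated best with KO replicate 3 (0.207). With the replicate block 0 genes were called, Opa1 stood at -1.07 (edgeR unadjusted p 0.0616) and Mief2 at -1.10, and Yme1l1 (0.0036) and Dnm1l (-0.0015) changed sign.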
